A study of Mus musculus with 6 samples.

Results

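The cyclins of types A, B, D and E were followed through the ribosome-bound mRNA of Gli1-targeted cells of the adult mouse dentate gyrus. By the paper, such a profile largely reflects radial-glial neural stem cells (RGLs), progeny of their first division and astrocytes. The members were taken by gene name, with earlier results of these data known. They are Ccna1, Ccna2, Ccnb1, Ccnb2, Ccnd1, Ccnd2, Ccnd3, Ccne1 and Ccne2, which is 9 of the 37620 genes counted. All 9 passed the filter of more than 1 CPM (counts scaled to library size) in at least 1 sample and were tested among 15056 genes, and the CPM values below are scaled to composition as well (TMM factors). The samples came from Gli1CreERT2:Rpl22HA f/+ mice that were either Klf9 +/+ (3 samples) or Klf9 f/f (3 samples), aged 2–3 months. Every mouse received tamoxifen at 250 mg/kg, 3 times at intervals of 12 hr, and tissue was collected 4 days after the last dose. Tamoxifen activates the Cre recombinase expressed from the Gli1 locus. Cre switches on a hemagglutinin-tagged ribosomal protein in both genotypes and deletes the floxed Klf9 alleles in Klf9 f/f mice. From its estimate of recombination, the paper proposes that not all labelled RGLs lose Klf9. Tagged ribosomes were then pulled down from 1 homogenate per sample, in which the 6 dentate gyri of 3 animals were combined, so that single mice cannot be followed. By their library names the samples fall into series 1, with replicates 1 and 2 of both genotypes, and series 2, with the third.

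Reads counted on genes numbered 52188635 to 66343759 per sample in series 1 and 21594714 to 27594529 in series 2. Reads that HTSeq, the read counter, assigned to no annotated feature were set against the sum of these and the reads counted on genes. They made up 7.03% to 8.65% in series 1 and 12.8% to 14.2% in series 2, and where they lie was not examined. In CPM, Klf9 itself measured 200.9, 203.9 and 139 over Klf9 +/+ replicates 1 to 3 and 114, 121 and 120.0 over Klf9 f/f replicates 1 to 3, without overlap of the genotypes. On the log2 scale the Klf9 difference was -0.78 in series 1 and smaller in series 2, at -0.21. Over both series its log2 fold change was -0.59, with an unadjusted p = 0.0032 and an adjusted p = 0.844 by the quasi-likelihood test of edgeR. Klf9 thus passed the threshold used below, a 1.2-fold change with an unadjusted p under 0.05, and did not pass the adjustment over all genes. Radial glia markers summed to 5046 to 6506 CPM in Klf9 +/+ and 6273 to 7812 CPM in Klf9 f/f. Of the 11 tested, 1 passed that threshold upward, as did 1.82% of all genes. It was Gfap, also a marker of astrocytes, with means of 2395 CPM in Klf9 +/+ and 3200 CPM in Klf9 f/f. A log2 fold change above 0 was seen for 9 of the 11, against 50.2% of all genes, with Sox2 and Nes at -0.032 and -0.11. Astrocyte markers summed to 11004 to 15320 CPM in Klf9 +/+ and 14346 to 16429 CPM in Klf9 f/f. Markers of other cell types were also present, with 10 choroid plexus markers at 123 to 2664 summed CPM in Klf9 +/+ and 14.6 to 397 in Klf9 f/f, and 9 endothelial markers at 147 to 378 and 58.0 to 239. In such mixtures, fewer cells of a type and less RNA per cell cannot be told apart.

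Cyclins are the regulatory subunits of the cyclin-dependent kinases (Cdks), and their synthesis and destruction order the steps of cell division. D-type cyclins pair with Cdk4 and Cdk6 and link mitogen signals to phosphorylation of the retinoblastoma protein, E-type cyclins pair with Cdk2 at entry into S phase, A-type cyclins act through S phase and G2, and B-type cyclins drive mitosis with Cdk1. Cyclin D2 is the D-type cyclin known to be needed for adult hippocampal neurogenesis, and cyclin A1, unlike the widely used cyclin A2, is best known from male germ cells.

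Promoter sequences are shown for 3 members picked by the results below: Ccna1, which passed the test between genotypes, and the B-type pair. Of that pair Ccnb2 and not Ccnb1 passed the test between library series, although both genes were lower in series 2. The sequences entered no comparison. They run from 250 bases before to 50 bases after the start in RefSeq (GRCm38.p6), 5′ to 3′ on the gene's own strand, with Ccna1 at chr3:55055006-55055305, Ccnb1 at chr13:100786437-100786736 and Ccnb2 at chr9:70421505-70421804, all on the minus strand. Capitals mark matches on either strand to the GC box GGGCGG, a kind of site bound by Krüppel-like and Sp factors, to the CCAAT box CCAAT, bound by NF-Y, and to TTTGAA, the core of the cell-cycle genes homology region found in many G2/M promoters.
Ccna1: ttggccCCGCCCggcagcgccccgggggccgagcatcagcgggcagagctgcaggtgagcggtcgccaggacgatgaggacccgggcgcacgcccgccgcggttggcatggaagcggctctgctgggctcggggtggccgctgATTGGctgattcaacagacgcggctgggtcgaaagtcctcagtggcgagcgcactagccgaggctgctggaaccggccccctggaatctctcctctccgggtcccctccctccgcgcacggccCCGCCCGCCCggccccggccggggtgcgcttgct
Ccnb1: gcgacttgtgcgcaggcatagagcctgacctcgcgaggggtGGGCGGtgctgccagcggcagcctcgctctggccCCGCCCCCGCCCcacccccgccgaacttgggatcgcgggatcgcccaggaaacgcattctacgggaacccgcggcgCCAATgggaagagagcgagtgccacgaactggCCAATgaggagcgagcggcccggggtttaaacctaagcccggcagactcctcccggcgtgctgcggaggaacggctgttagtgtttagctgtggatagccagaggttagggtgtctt
Ccnb2: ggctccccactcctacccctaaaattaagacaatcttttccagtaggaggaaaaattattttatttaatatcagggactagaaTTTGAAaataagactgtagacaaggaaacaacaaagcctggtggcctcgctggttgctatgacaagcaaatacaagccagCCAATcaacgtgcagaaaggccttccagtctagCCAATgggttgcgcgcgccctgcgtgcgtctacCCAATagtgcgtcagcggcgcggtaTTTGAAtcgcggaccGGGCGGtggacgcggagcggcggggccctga
The Ccna1 window held 3 GC boxes, at bases -244 to -239, 17 to 22 and 21 to 26 counted from the start, the last 2 of which overlap, and 1 CCAAT box. The Ccnb1 window held 3 GC boxes and 2 CCAAT boxes, at -99 to -95 and -67 to -63. The Ccnb2 window held 3 CCAAT boxes, at -87 to -83, -54 to -50 and -21 to -17, and TTTGAA at -167 to -162 and at 5 to 10, beside 1 GC box. Windows were at hand for 5 of the 9 members, the other two being Ccne1, with 1 window, and Ccnd3, with 2. All 6 windows held a GC box, as did 35.7% of the 32851 promoter windows of this length. A CCAAT box was found in 4 of the 6, missing from Ccne1 and from 1 window of Ccnd3, and in 37.4% of all windows, and TTTGAA in 1 of the 6 and in 17.9% of all windows. These matches describe letters and not bound sites. Ccna2, Ccnd1, Ccnd2 and Ccne2 had no entry.

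The 9 cyclins covered a 63.0-fold range of level per length, in CPM per kb of merged exons. Ccnd2 was far above the rest at 330.2 ± 78.4 (SD, n = 6), which is higher than 99.2% of the 15035 tested genes with a known length. The mitotic and S-phase cyclins followed, with Ccnb2 at 84.8 ± 20.2, Ccna2 at 57.0 ± 4.26 and Ccnb1 at 41.4 ± 3.39 (SD, n = 6), and Ccnd3 stood among them at 43.5 ± 5.77 (SD, n = 6). Ccne1, Ccne2 and Ccnd1 formed a low group at 11.7 ± 1.30, 9.34 ± 1.79 and 8.13 ± 2.53 (SD, n = 6), and Ccna1 had the lowest mean at 5.24 ± 2.30 (SD, n = 6).

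**Figure D1:**
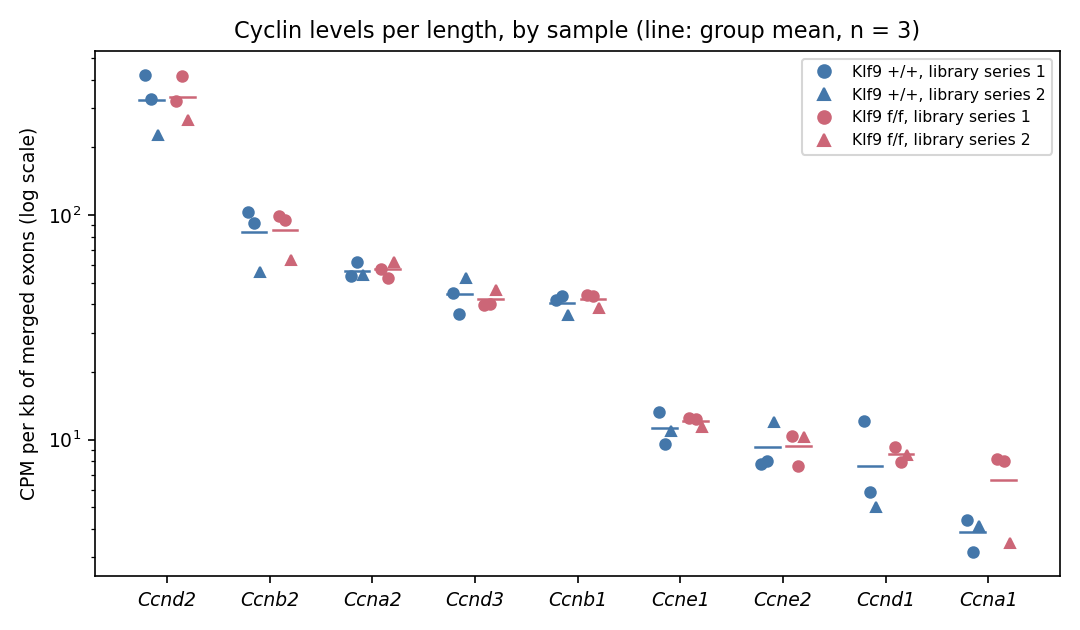
Level of each cyclin in CPM per kb of merged exons, on a log axis, ordered by the mean of all samples, with points for samples and lines for the mean of each genotype (n = 3). Ccnd2 lies above every other cyclin in all 6 samples, and the points of both genotypes overlap for each cyclin.

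Neighbours in this order were separate at 2 steps. Ccnd2 exceeded Ccnb2 in 6 of 6 samples, by 1.96 ± 0.16 (SD) on the log2 scale, and Ccnb1 exceeded Ccne1 in 6 of 6 samples, by 1.83 ± 0.19, and at both steps the ranges did not overlap. Ccnb2 exceeded Ccna2, and Ccna2 exceeded Ccnd3, in 6 of 6 samples, by 0.54 ± 0.41 and 0.40 ± 0.25 (SD) on the log2 scale, with overlapping ranges. Ccnd3 was above Ccnb1 in 3 of 6 samples, Ccne1 above Ccne2 in 5 of 6, Ccne2 above Ccnd1 in 4 of 6 and Ccnd1 above Ccna1 in 5 of 6. The order of these neighbours was thus not the same in every sample. The order within the middle group also rests on the length used. Scaled by the longest transcript in place of all merged exons, Ccnb1 stood at 70.1, above Ccna2 at 67.5 and Ccnd3 at 46.4. Exons of Ccnd1 share 818 bases with Oraov1 on the opposite strand, those of Ccne2 609 with Ints8, those of Ccna2 512 with Exosc9 and those of Ccnd3 353 with Bysl, and counting without strand cannot divide reads there. The pseudogenes Ccnb2-ps and Ccnd3-ps carry at most 104 and 14 counts in any sample.

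The D-type cyclins were dominated by Ccnd2 (ENSMUSG00000000184, minus strand of chromosome 6 of mm9, 127075797 to 127101066). In CPM, Ccnd2 measured 2406, 1872 and 1298 over Klf9 +/+ replicates 1 to 3 and 1842, 2372 and 1506 over Klf9 f/f replicates 1 to 3. The groups overlapped, and the lowest sample of each genotype was that of series 2. This single gene took 0.14% to 0.23% of all reads counted on genes. Per length, it made up 86.8% to 89.6% of the summed D-type level in the samples of series 1 and 79.8% and 82.8% in those of series 2.

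**Figure D2:**
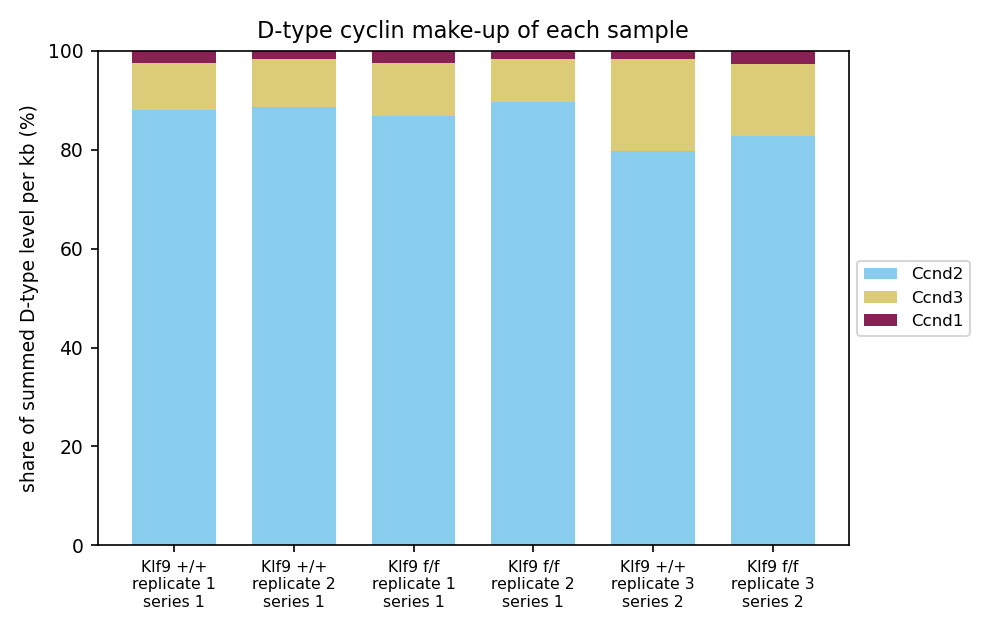
Share of Ccnd2, Ccnd3 and Ccnd1 in the summed D-type level per kb of merged exons, in percent, for each sample. Ccnd2 takes most of every bar, and the Ccnd3 share is larger in both samples of series 2 (18.5% and 14.5%) than in the samples of series 1 (8.69% to 10.7%).

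Ccnd1 contributed 1.58% to 2.69% of the D-type level. Per length, Ccnd2 over Ccnd1 was 45.5 ± 10.5 (SD, n = 3) for Klf9 +/+ and 39.3 ± 11.5 (SD, n = 3) for Klf9 f/f, a difference of -0.23 on the log2 scale (exact permutation test without regard to series, two-sided, p = 0.5, where 0.1 is the smallest that 3 samples against 3 allow), with -0.056 in series 1 and -0.56 in series 2. The balance of these paralogs thus differed between the genotypes by less than the spread between samples.

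Between genotypes, 1 of the 9 cyclins passed the threshold of the study's methods, taken here as a 1.2-fold change with an unadjusted p under 0.05. It was Ccna1, higher in Klf9 f/f, against a background of 1.82% of all genes tested called up and 2.5% called down, 4.32% in all. The other 8 had log2 fold changes from -0.074 to 0.22, and the 95% interval of each held 0. Of the 9, 8 had a log2 fold change above 0, as had 50.2% of all genes, with a median of 0.057 over the cyclins and 0.00084 over all genes tested. After adjustment over all genes, 0 cyclins and 0 genes had an adjusted p under 0.05 by the quasi-likelihood test, 1 cyclin had an unadjusted p under 0.05, and the likelihood-ratio test of edgeR and DESeq2 also left 0 cyclins after adjustment. Within each series, 0 of the 9 had their Klf9 f/f samples wholly above, or wholly below, those of Klf9 +/+, a pattern seen upward in 7.78% and downward in 5.53% of all genes. Likewise, 0 of the 9 had all Klf9 f/f samples above or all below the Klf9 +/+ samples over both series, against 2.03% and 1.35% of all genes.

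**Figure D3:**
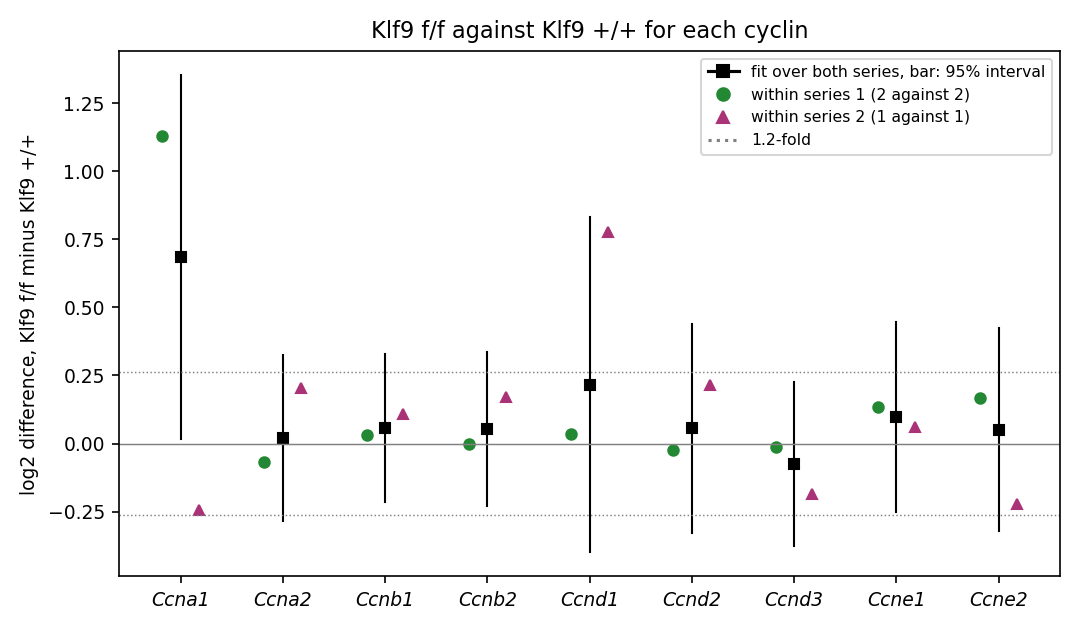
Log2 difference of each cyclin, Klf9 f/f minus Klf9 +/+, from the fit over both library series with its 95% interval (squares), within series 1 (circles, 2 samples against 2) and within series 2 (triangles, 1 against 1), with dotted lines at 1.2-fold. The interval of Ccna1 alone lies above 0, and its series 1 and series 2 points lie on opposite sides of 0.

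Ccna1, which encodes cyclin A1, was higher in both Klf9 f/f samples than in both Klf9 +/+ samples of series 1, and lower in that of series 2. In mm9, the build of the counts, it lies on the minus strand of chromosome 3 from 54849391 to 54858977 (ENSMUSG00000027793). In CPM, Ccna1 measured 6.89, 4.94 and 6.44 over Klf9 +/+ replicates 1 to 3 and 12.9, 12.6 and 5.43 over Klf9 f/f replicates 1 to 3. Klf9 f/f replicates 1 and 2 were high and close to each other, and Klf9 f/f replicate 3 lay within the range of the Klf9 +/+ samples. The fit over both series gave a log2 fold change of 0.69 (standard error 0.30, 95% interval 0.018 to 1.36), with an unadjusted p = 0.0453 and a Benjamini-Hochberg adjusted p = 1.00 by the quasi-likelihood test of edgeR. Within series 1 the log2 difference was 1.13, while the Klf9 +/+ replicates differed by 0.48 and the Klf9 f/f replicates by 0.028. Within series 2 it was -0.24. The test of the genotype difference between the series gave -1.36 (standard error 0.51, unadjusted p = 0.0224, adjusted p = 1.00 by edgeR), and Ccna1 was the 1 cyclin called in it, against 1.53% of all genes. Without Klf9 +/+ replicate 1 or 2, or without Klf9 f/f replicate 1 or 2, Ccna1 no longer passed the threshold, at log2 fold changes of 0.68, 0.41, 0.57 and 0.59 (unadjusted p of 0.106, 0.208, 0.116 and 0.124 by edgeR). Of these, the value without Klf9 +/+ replicate 2 is smaller by over 1.5 times, and without Klf9 f/f replicate 3 or Klf9 +/+ replicate 3 the log2 fold change was larger, at 1.11 and 1.10. With all samples kept, the call was also lost under upper-quartile normalization (0.68, unadjusted p = 0.0554 by edgeR) and without the library series term (0.77, unadjusted p = 0.0610 by edgeR). Its lowest count, 122 reads in Klf9 f/f replicate 3, carries a counting error of 9.05%. Apart from these counts, the paper reported qRT-PCR on separately isolated mRNA of the same kind. There, a cell-cycle gene that it writes as Ccn1a, and as CyclinA1 in its discussion, was higher without Klf9. Those measurements were not analysed here.

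**Figure D4:**
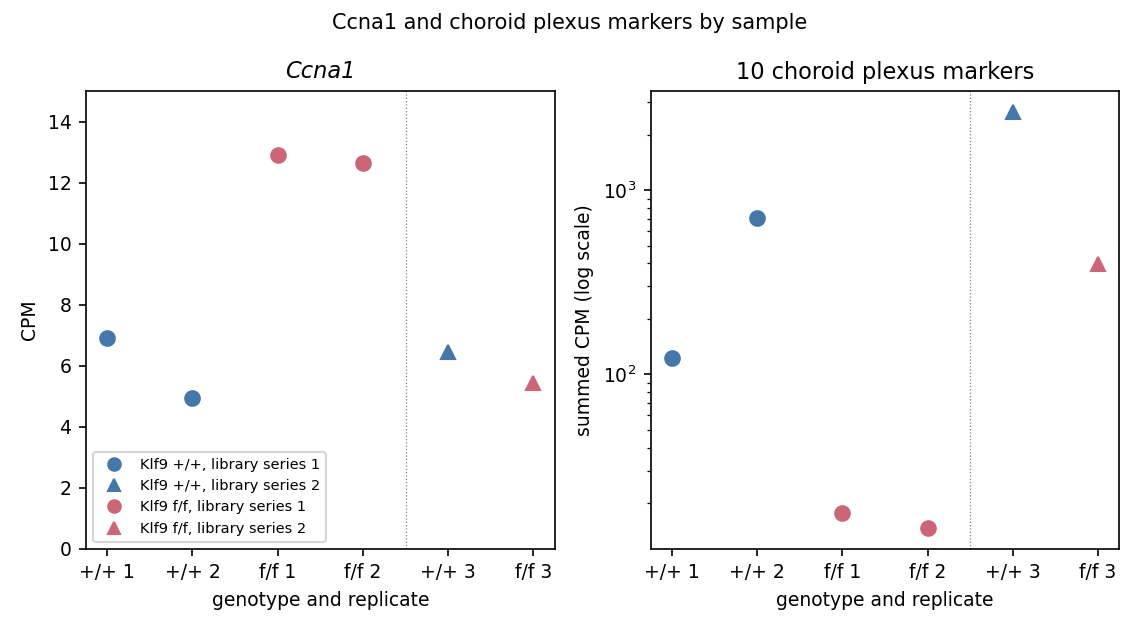
Ccna1 in CPM (left) and the summed CPM of 10 choroid plexus markers on a log axis (right) for each sample, with a dotted line between library series 1 and 2. The Klf9 f/f replicates that are highest for Ccna1, at 12.9 and 12.6 CPM, are lowest for the markers, at 17.7 and 14.6 summed CPM. In series 2 both Ccna1 and the markers are lower in Klf9 f/f than in Klf9 +/+.

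The choroid plexus markers were lowest in Klf9 f/f replicates 1 and 2, where Ccna1 was highest. In series 2, however, the markers and Ccna1 were both lower in Klf9 f/f. Their summed CPM was 123, 704 and 2664 over Klf9 +/+ replicates 1 to 3 and 17.7, 14.6 and 397 over Klf9 f/f replicates 1 to 3. All 10 were lower in Klf9 f/f at the threshold above, where 2.5% of all genes were called down. None was at 0 in every sample, and their part in the Ccna1 difference was not tested. Granule neuron markers, by contrast, summed to 1162 to 1406 CPM in Klf9 +/+ and 1194 to 1370 CPM in Klf9 f/f.

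Ccna2, which encodes the cyclin A of somatic S phase and G2, had the smallest relative spread over the 6 CPM values, although Ccnb1 had the smaller standard error between genotypes (0.12 against 0.14). In CPM, Ccna2 measured 189, 217 and 189 over Klf9 +/+ replicates 1 to 3 and 202, 185 and 218 over Klf9 f/f replicates 1 to 3. The groups overlapped, and the log2 fold change was 0.021 (95% interval -0.28 to 0.33). The log2 ratio of Ccna2 to Ccna1 per length differed by -0.65 between Klf9 f/f and Klf9 +/+ (exact permutation test over all samples without regard to series, two-sided, p = 0.3, smallest possible 0.1), with opposite signs in series 1, at -1.199, and series 2, at 0.45.

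The B-type cyclins, which drive entry into mitosis, differed little by genotype. In CPM, Ccnb1 measured 178, 185 and 151 over Klf9 +/+ replicates 1 to 3 and 187, 184 and 163 over Klf9 f/f replicates 1 to 3. In CPM, Ccnb2 measured 159, 142 and 86.1 over Klf9 +/+ replicates 1 to 3 and 153, 147 and 97.0 over Klf9 f/f replicates 1 to 3. For both genes the groups overlapped and the samples of series 2 were lowest in each genotype. The log2 fold changes were 0.058 for Ccnb1 (95% interval -0.21 to 0.33) and 0.053 for Ccnb2 (95% interval -0.23 to 0.34). Per length, Ccnb1 over Ccnb2 was 0.51 ± 0.12 (SD, n = 3) for Klf9 +/+ and 0.51 ± 0.094 (SD, n = 3) for Klf9 f/f.

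Among the remaining G1 cyclins, Ccnd1, the D-type cyclin most directly induced by mitogens, had the widest spread. In CPM, Ccnd1 measured 46.2, 22.5 and 19.2 over Klf9 +/+ replicates 1 to 3 and 35.7, 30.5 and 32.9 over Klf9 f/f replicates 1 to 3. Klf9 +/+ replicate 1 was above all Klf9 f/f samples and the other Klf9 +/+ samples were below them, so that the SD was 14.8 CPM in Klf9 +/+ and 2.64 CPM in Klf9 f/f. The log2 fold change was 0.22 (standard error 0.27, 95% interval -0.40 to 0.83), with 0.034 in series 1 and 0.78 in series 2. Without Klf9 +/+ replicate 1 it was 0.65 and passed the threshold (unadjusted p = 0.00383, adjusted p = 0.788 by edgeR's quasi-likelihood test). That replicate also had the highest sum of endothelial markers, at 378 CPM, and the part of those markers was not tested. Of the 9 endothelial markers, 2 were called lower in Klf9 f/f, where 2.5% of all genes were called down. Mural markers moved with genotype as well, with 5 of 8 called lower in Klf9 f/f, against the same 2.5% of all genes. They summed to 579 to 1085 CPM in Klf9 +/+ and 433 to 751 CPM in Klf9 f/f. Their sum was highest in Klf9 +/+ replicate 3, which had the lowest Ccnd1, at 1085 CPM against 929 CPM in Klf9 +/+ replicate 1. Acta2, the actin of smooth muscle and 1 of the 8 mural markers, did not follow the mural sum. It was at 284 CPM in Klf9 +/+ replicate 1 and at 18.3 to 111 CPM elsewhere. This gene was picked after its values were seen and does not stand for the list. The part of the mural markers was not tested either.

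Ccnd3, the third D-type cyclin, was the 1 member with a log2 fold change below 0, at -0.074 (95% interval -0.38 to 0.23). In CPM, Ccnd3 measured 101, 82.2 and 119 over Klf9 +/+ replicates 1 to 3 and 90.1, 91.0 and 104 over Klf9 f/f replicates 1 to 3. Ccnd2 had a log2 fold change of 0.057 (95% interval -0.33 to 0.44).

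The E-type cyclins, the partners of Cdk2, were low and alike in level. In CPM, Ccne1 measured 35.4, 25.6 and 29.2 over Klf9 +/+ replicates 1 to 3 and 33.2, 32.8 and 30.4 over Klf9 f/f replicates 1 to 3. In CPM, Ccne2 measured 27.1, 28.2 and 41.9 over Klf9 +/+ replicates 1 to 3 and 36.3, 26.6 and 35.8 over Klf9 f/f replicates 1 to 3. The genotypes overlapped for both, with log2 fold changes of 0.097 (95% interval -0.25 to 0.44) and 0.051 (95% interval -0.32 to 0.42).

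More cyclins were called between the library series than between genotypes, and not all in the same direction. Ccnb2 and Ccnd2 were lower in series 2, by log2 differences of -0.72 (standard error 0.14, adjusted p = 0.00721) and -0.60 (standard error 0.19, adjusted p = 0.0381), in the edgeR fit with the genotype as a term. At this adjusted threshold 2 of 9 cyclins were lower and 0 higher, where 16.6% of all genes were lower and 12.9% higher (29.5% either way). At 1.2-fold and an unadjusted p under 0.05, 3 of 9 cyclins were called, against 43.1% of all genes. Ccne2 passed this unadjusted threshold only, at 0.40 (standard error 0.17, unadjusted p = 0.0463, adjusted p = 0.110 by edgeR). Both samples of series 2 lay below all of series 1 for 3 cyclins, Ccnb1, Ccnb2 and Ccnd2, and above them for 1, Ccnd3, patterns seen in 28.3% and 25.5% of all genes.

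**Figure D5:**
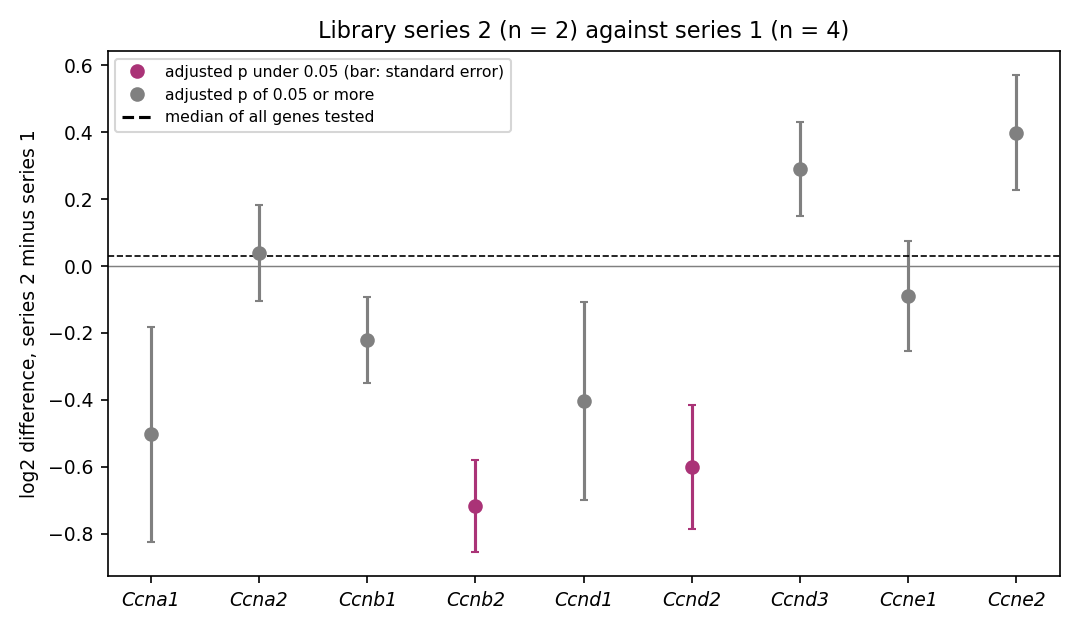
Log2 difference of each cyclin, series 2 (2 samples) minus series 1 (4 samples), from the fit with the genotype as a term, with its standard error. Ccnb2 and Ccnd2, drawn in purple, have an adjusted p under 0.05, while Ccna2 lies near the median of all genes tested (dashed, 0.030).

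Of the 6 ratios between paralogs of a type, 3 did not overlap between the series and 3 did. The ratio of Ccnb1 to Ccnb2 per length was 0.41 to 0.48 in the samples of series 1 and 0.61 and 0.64 in those of series 2. The ratio of Ccnd2 to Ccnd3 was 8.08 to 10.3 in series 1 and 5.70 and 4.32 in series 2. The ratio of Ccne1 to Ccne2 was 1.19 to 1.71 in series 1 and 1.11 and 0.92 in series 2. Ratios that overlapped were those of Ccna2 to Ccna1, Ccnd2 to Ccnd1 and Ccnd1 to Ccnd3, and no ratio was tested between the series. Without Klf9 +/+ replicate 3 only Ccnb2 and Ccna1 passed the unadjusted threshold, Ccnd2 was at -0.46, and Ccna1, at -0.50 over all samples, was at -1.21. The count of cyclins past the adjusted threshold was 0 without Klf9 +/+ or Klf9 f/f replicate 3, 1 without Klf9 +/+ replicate 1 or 2 or Klf9 f/f replicate 2, and 3 without Klf9 f/f replicate 1. Ccne2 no longer passed the unadjusted threshold without Klf9 f/f replicate 2 or any 1 of the Klf9 +/+ samples. Depth, the share of reads assigned to no feature and choroid plexus markers (14.6 to 704 summed CPM in series 1, 397 and 2664 in series 2) moved with the series as well. These cannot be told apart.

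The partners and regulators of the cyclins gave the surroundings in which these values stand. Of the 4 cell-cycle kinases, 0 passed the threshold between genotypes. In CPM, Cdk4, the partner of D-type cyclins, measured 882, 924 and 557 over Klf9 +/+ replicates 1 to 3 and 662, 1001 and 597 over Klf9 f/f replicates 1 to 3. In CPM, Cdk1, the mitotic kinase, measured 292, 228 and 129 over Klf9 +/+ replicates 1 to 3 and 243, 246 and 145 over Klf9 f/f replicates 1 to 3. Cdk1 and Cdk4 were lower in series 2, with log2 differences of -0.88 and -0.59 (adjusted p = 0.00608 and 0.0462 by edgeR). At this adjusted threshold 16.6% of all genes were lower, and Cdk2 and Cdk6 did not pass it. Of the B- and D-type cyclins, their partners, Ccnb2 and Ccnd2 were lower too. Ccnb1 and Ccnd1, at -0.22 and -0.40, did not pass, nor did Ccnd3, which went the other way at 0.29. Cdk2, the partner of cyclins E and A, stood between 67.4 and 74.2 CPM in all 6 samples. For Cdk6 the log2 fold change was -0.24 (standard error 0.21), and the test of its genotype difference between the series gave 0.86 (unadjusted p = 0.0472, adjusted p = 1.00 by edgeR).

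Of 6 Cdk inhibitors tested, 1 was called, Cdkn1c, which encodes p57 and restrains G1 kinases. In CPM, Cdkn1c measured 39.9, 35.2 and 85.5 over Klf9 +/+ replicates 1 to 3 and 26.4, 23.2 and 40.5 over Klf9 f/f replicates 1 to 3, with Klf9 +/+ replicate 3 far above the rest. It fell by 0.76 on the log2 scale (standard error 0.15, adjusted p = 0.474 by edgeR), where 2.5% of all genes were called down, and the other 5 were not called. Klf9 +/+ replicate 3 also had the highest sums of choroid plexus (2664 CPM), meningeal (2107 CPM) and mural markers (1085 CPM), whose part in the Cdkn1c difference was not tested. Among 13 retinoblastoma and E2F genes and 16 genes of cyclin turnover and Cdk phosphorylation, 0 were called in either direction, with median log2 fold changes of 0.025 and 0.050. Of 18 S-phase genes, 0 were called and 17 had a log2 fold change above 0, against 50.2% of all genes. Their median was 0.21, with Mcm2, a subunit of the replicative helicase, at 0.28 (standard error 0.13). Pcna, the sliding clamp of replication, was the 1 S-phase gene below 0, at -0.057. Of 18 mitosis genes, 0 were called, 13 had a log2 fold change above 0 and the median was 0.10. Mki67, the gene of the proliferation antigen Ki-67, went against most of them, at -0.16 (standard error 0.14). Mcm2, Pcna and Mki67 were named after their values were seen. Of 16 other cyclins tested, 0 were called, with a median of -0.025. The S-phase genes summed to 2256 to 2805 CPM in Klf9 +/+ and 2642 to 3286 CPM in Klf9 f/f, and the mitosis genes to 1704 to 2197 and 1920 to 2170 CPM, so both lists overlapped between genotypes.

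Among cell type lists, neuroblast and intermediate progenitor markers summed to 1391 to 3411 CPM in Klf9 +/+ and 858 to 2294 CPM in Klf9 f/f, with 0 of 8 called. Astrocyte markers summed to 11004 to 15320 CPM and 14346 to 16429 CPM. Of these 12 markers, 4 were higher in Klf9 f/f at the threshold, where 1.82% of all genes were called up. A log2 fold change above 0 was seen for all 12 astrocyte markers (median 0.36), against 50.2% of all genes. It was seen for 0 of the 8 neuroblast and intermediate progenitor markers (median -0.37). The part of these cell types in the cyclin levels was not tested.

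Genes whose pattern over the 6 samples was most like that of a cyclin were sought among 11974 genes by Pearson's r of log2 CPM, after the mean of each library series had been taken out, which leaves 4 free values. For Ccna1 these were Hebp2, Rilpl1 and Grin1, with r of 0.996, 0.996 and 0.994. For Ccnd2 they were Il17d, Exosc5 and Sdr39u1, with r of 1.00, 0.997 and 0.997. For Ccnb2 they were Ppap2b, Bcl2 and Tubb2c, with r of 0.999, 0.999 and 0.998, and in none of the 3 cases was another cyclin among the nearest genes. For the other 6 cyclins the nearest gene had an r of 0.994 to 0.999.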

How the data were processed

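Ribosome-bound mRNA from 6 samples was analysed from the whole-number counts that the authors deposited, 1 library per sample, without normalization. By the labels and the study's methods, the authors aligned reads to mouse mm9 using STAR, and HTSeq assigned them to genes irrespective of strand. Of 37620 genes, 415 had no name in GENCODE M1 (mm9), and the summary lines of HTSeq were left out. Precision was limited mainly by the 3 samples per genotype, since the cyclins had 122 to 120690 reads per sample, and counting errors quoted cover counting only.

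Genes exceeding 1 CPM (counts scaled to library size) in any sample were normalized by TMM in edgeR 4.0.16 (R 4.3.3) and tested by glmQLFit and glmQLFTest with the genotype and library series as terms (3 residual degrees of freedom), and with their interaction (2 residual degrees of freedom). Standard errors are the log2 fold change divided by the square root of F. Samples were grouped by the genotype label. p-values measure the spread between pooled samples. The labels pair no samples. Log2 CPM used a prior count of 2. Lengths are merged GENCODE M1 exons. Alternatives included DESeq2 1.42.0. Tests were first checked on simulated counts. All cyclins are named, beside the cell-cycle kinases, called genes of pathway lists and the 3 genes most like a cyclin. Mcm2, Pcna and Mki67 were chosen after their values were seen. Members and lists were chosen with earlier results of these data known. Figures used matplotlib 3.10.9. Input libraries were not analysed here.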

Additional observations from a re-analysis of the deposited data

Results flagged for a closer look

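The difference between genotypes was not the same in both library series for Ccna1 and for the kinase gene Cdk6. For Ccna1, Klf9 f/f minus Klf9 +/+ was 1.13 on the log2 scale in series 1 and -0.24 in series 2, and the test of that difference gave -1.36 (standard error 0.51, unadjusted p = 0.0224, adjusted p = 1.00 by edgeR). For Cdk6 it was -0.54 in series 1 and 0.34 in series 2, and the test of the difference gave 0.86 (unadjusted p = 0.0472, adjusted p = 1.00 by edgeR). Series 2 holds 1 sample of each genotype, and neither gene passed the adjustment over all genes. With 3 samples per genotype, single samples that stand apart were not searched for.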

How the results depend on the processing

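Ccna1 kept a log2 fold change above 0 under every alternative run. The count of cyclins called between genotypes was 1 and became 0 with upper-quartile normalization (Ccna1 at 0.68) and without the library series term (Ccna1 at 0.77), and it lay between 0 and 1 with each sample left out in turn. Without Klf9 +/+ replicate 1 the 1 cyclin called was Ccnd1, not Ccna1. With no filter beyond 1 count, 2 cyclins were called in the test of the genotype difference between series, and the other settings gave 1. Between the series, 3 cyclins were called (Ccnb2, Ccnd2 and Ccne2), and 2 to 3 with each sample left out, where Ccnd3 took the place of Ccne2 without Klf9 +/+ replicate 1 and Ccna1 did so without Klf9 +/+ replicate 2. Upper-quartile normalization gave 4, with Ccnd3, as did no filter beyond 1 count, with Ccnd1. The cause of these changes was not tested.

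In library series 1 alone, Ccna2, Ccnb2, Ccnd1 and Ccnd2 turned to log2 fold changes of -0.075, -0.0099, -0.060 and -0.029. When samples were dropped 1 at a time, the genotype log2 fold change ranged from 0.41 to 1.11 for Ccna1, -0.077 to 0.11 for Ccna2, 0.027 to 0.079 for Ccnb1, -0.010 to 0.12 for Ccnb2, -0.059 to 0.65 for Ccnd1, -0.029 to 0.19 for Ccnd2, -0.17 to 0.00050 for Ccnd3, -0.035 to 0.24 for Ccne1 and -0.13 to 0.19 for Ccne2. The difference between the series ranged from -1.21 to 0.12 for Ccna1, -0.10 to 0.20 for Ccna2, -0.84 to 0.017 for Ccnd1 and -0.17 to 0.014 for Ccne1, and it kept its direction for the other 5 cyclins. The log2 ratio of Ccnd2 to Ccnd1, Klf9 f/f minus Klf9 +/+, ranged from -0.45 to -0.062. Of 18 values of level per length under other lengths, one of which (exons shared with no other gene) was added after the data were seen, 6 moved by more than the spread between samples. The fits with a sample left out leave 2 residual degrees of freedom.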
